A study of Mus musculus with 6 samples.

Results

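The genes described here are 5 that are known from neurons: Tubb3, which encodes the neuron-specific class III beta-tubulin, Tubb2b, which encodes another beta-tubulin of developing neurons, Elavl4, which encodes the neuronal RNA-binding protein HuD, Ncam1, which encodes a neural cell adhesion molecule, and Calb1, which encodes the calcium-buffering protein calbindin. They were measured in the embryonic mouse pancreas on 6 spotted arrays with 2 channels each. Their spots were all those that carried exactly 1 gene symbol in the platform's annotation and for which that symbol was one of the 5, which gave 15 spots out of 17922 tested spots with 1 symbol, representing 5 of 10818 genes. The genes were chosen with these same ratios in view, where a spot each of Tubb3 and Elavl4 and both spots of Ncam1 were past the threshold and a Calb1 spot was among the largest ratios. The values are therefore given as a description. Calls from the fit over all spots are given for these genes too, but they are not a test of them. Tubb3 was also taken because it has been reported as a target of the SoxC transcription factors, the group to which Sox4 belongs.

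Each array compared RNA from Sox4-/- pancreas, taken from homozygous mutant embryos, with RNA from the pancreas of their wild-type littermates, both at embryonic day 12.5. Per the labels of arrays 1 and 2, pancreases were pooled by genotype into 2 groups before RNA was isolated, amplified linearly and labelled indirectly. All 6 arrays carried this same contrast, and no separate control hybridisation was among them. The arrays may therefore be repeats of 1 knockout pool and 1 wild-type pool, so the p-values printed here speak of variation from array to array, which may be technical. The labels describe a knockout of the gene and name no restriction to the pancreas. Values are log2 ratios, likely of knockout over wild type, because the labels list knockout RNA second, in channel 2; the dyes and the way the ratio was divided were not given in the sources used here. On that reading a value above 0 is higher in the RNA labelled knockout. The targeted gene did not check the labels: its spots were at -0.03 ± 0.25 and -0.09 ± 0.13 (SD, n = 6; Sox4, limma, adjusted p = 0.892 and 0.446), and whether they lie in the deleted stretch is not known here. No dye swap is stated, so a channel preference of a spot and a difference between genotypes cannot be told apart. In pooled tissue, fewer cells of a type and less RNA per cell cannot be told apart either. A ratio holds no level, so the abundance of pancreatic marker transcripts could not be read from these values.

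Neurons in and around the pancreas derive from neural crest cells that migrate into the gut and its outgrowths, and they mature alongside the endocrine, exocrine and mesenchymal cells of the organ. Sox4, Sox11 and Sox12 form the SoxC group, whose HMG box binds short DNA elements containing ACAAT, and in the nervous system Sox4 and Sox11 are known for switching on neuronal genes in newly formed neurons. Endocrine cells of the pancreas share many transcripts with neurons, so these genes are not markers of neurons alone in this organ.

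Upstream sequences are shown for Tubb3 and Elavl4 because Tubb3 is the reported SoxC target and because these were the 2 of the 5 genes matched in the RefSeq promoter table of GRCm38.p6. Each sequence holds the 250 bases before the annotated start, written 5′ to 3′ on the strand of the gene, and capitals mark CATTGT, the reverse complement of ACAATG. The Tubb3 stretch lies at chr8:123411303-123411552 on the plus strand, and the Elavl4 stretch lies at chr4:110351912-110352161 on the minus strand.
Tubb3: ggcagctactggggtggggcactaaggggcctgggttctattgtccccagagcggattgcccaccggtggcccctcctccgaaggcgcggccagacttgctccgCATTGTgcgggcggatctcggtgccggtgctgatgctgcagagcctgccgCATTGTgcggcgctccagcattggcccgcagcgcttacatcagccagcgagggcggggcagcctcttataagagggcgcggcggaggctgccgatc
Elavl4: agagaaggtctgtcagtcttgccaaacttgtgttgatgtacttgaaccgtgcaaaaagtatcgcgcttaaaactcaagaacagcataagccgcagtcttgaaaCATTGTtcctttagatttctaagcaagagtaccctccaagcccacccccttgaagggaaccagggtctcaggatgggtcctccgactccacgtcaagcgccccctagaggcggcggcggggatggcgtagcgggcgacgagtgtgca

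The Tubb3 stretch held 3 copies of ACAAT, read on both strands, at 211 to 207, 145 to 141 and 95 to 91 bases before the start, all as ATTGT on the gene's strand. In 2 of these copies the match extended to ACAATG, at 146 to 141 and 96 to 91 bases before the start. Of 32851 promoter stretches of the same length, 27.7% held at least 1 ACAAT, 6.59% at least 2 and 1.35% at least 3. For ACAATG, 10.7% held at least 1 copy and 0.834% at least 2. The Elavl4 stretch shown held 1 ACAATG, at 147 to 142 bases before the start, which overlapped 1 AACAAT at 146 to 141, and 9.42% of promoters held AACAAT. Of the other 3 starts of Elavl4 in the table, 1 held an ACAAT, at 212 to 208 bases before it, and the other two held none of these motifs. ACAAAG, another HMG-box element, was in neither stretch shown, and 16.5% of promoters held it. GC content was 68.0% in the Tubb3 stretch and 53.6% in the Elavl4 stretch. These matches describe letters only, since binding was not measured here.

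Of the 15 spots, 11 had a mean above 0 and 4 had a mean under 0, where 53.7% of all 21247 tested spots had a mean above 0. The median of the 15 means was 0.44, against 0.03 over all tested spots. The 4 spots under 0 were both spots of Ncam1, 1 of Tubb3 and 1 of Elavl4. On 8 spots every array with a value had the same sign. A limma fit over all spots placed 6 of the 15 past an adjusted p of 0.05 (Benjamini-Hochberg), 4 above 0 and 2 under 0, which is 40.0%, against 5.49% of all spots, of which 1.96% were above 0 and 3.53% under 0. Because the genes were chosen on this contrast, nothing is read from that share. The 6 spots were 1 each of Tubb3, Tubb2b, Elavl4 and Calb1, all above 0, and both of Ncam1, under 0. With 5 arrays, the number of spots of any kind that passed depended on which array was left out. On 6 arrays 1166 passed, against 18, 1072, 45, 11, 10 and 13 when arrays 1 to 6 were left out in turn. Of the 6 spots, 3 passed without array 2 (Tubb3, Tubb2b and the Ncam1 spot ZX-00138O03) and none without any other array. The Elavl4 spot, with values on 4 arrays, could not be tested without array 1, 2, 4 or 5. The means themselves kept their sign: without 1 array they lay between 0.37 and 0.41 for Tubb3, 0.41 and 0.46 for Tubb2b, -0.50 and -0.38 and -0.42 and -0.35 for Ncam1, and 1.86 and 2.56 for Calb1.

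**Figure D1:**
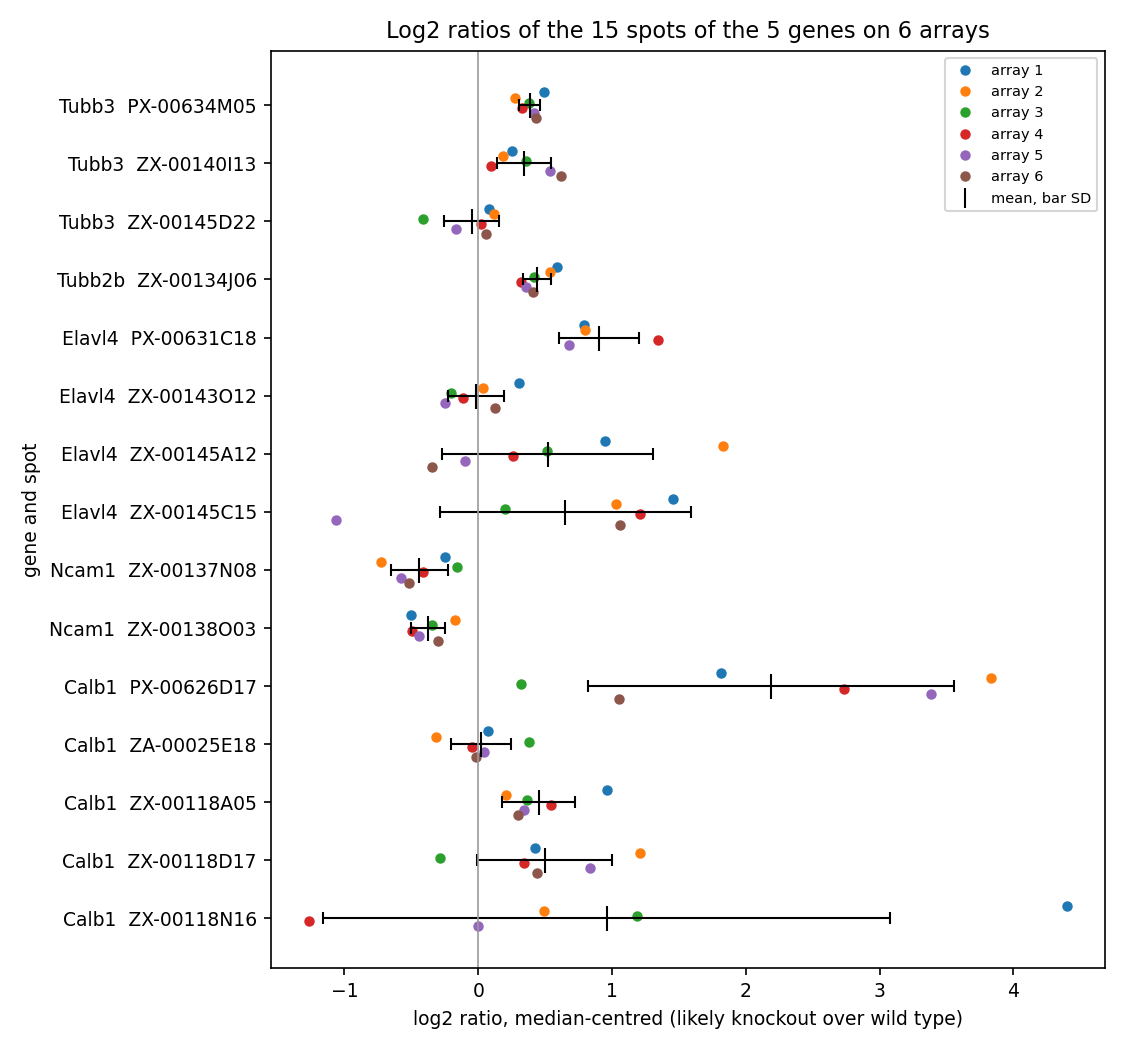
Median-centred log2 ratios (horizontal axis) of the 15 spots of Tubb3, Tubb2b, Elavl4, Ncam1 and Calb1 (vertical axis), 1 coloured point per array, with the mean and SD as black lines. The points of the Tubb2b spot and of 1 Tubb3 spot lie close together above 0, those of both Ncam1 spots lie under 0, and those of several Elavl4 and Calb1 spots reach from under 0 to far above it.

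Tubb3 is the beta-tubulin isotype by which neurons are most often recognised, and it is incorporated into the microtubules of axons. Its gene lies at chr8:123411553-123422015 (GRCm38.p6). It had 3 spots, and they did not give 1 picture. On spot PX-00634M05 the log2 ratios on arrays 1 to 6 were 0.49, 0.27, 0.38, 0.33, 0.41 and 0.43. All 6 values lay above 0 in a narrow band, with a mean of 0.39 ± 0.08 (SD, n = 6), or 1.31-fold. Only 1.12% of tested spots had a smaller or equal SD.

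On spot ZX-00140I13 the values were 0.25, 0.19, 0.36, 0.10, 0.54 and 0.62. These were also above 0 on 6 of 6 arrays but spread more widely, with arrays 5 and 6 highest and a mean of 0.34 ± 0.20 (SD, n = 6). On spot ZX-00145D22 the values were 0.08, 0.12, -0.41, 0.02, -0.17 and 0.06, with a mean of -0.05 ± 0.21 (SD, n = 6). This spot lay near 0 on most arrays and clearly under it on array 3 alone. Averaged over the 3 spots on each array, Tubb3 was 0.23 ± 0.10 (SD, n = 6), with array averages from 0.11 to 0.37, while the means of its spots ran from -0.05 to 0.39. The labels do not say which stretch of the transcript each spot probes, and the reason for the spots' difference was not tested.

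Tubb2b encodes a beta-tubulin used by migrating and differentiating neurons, and its gene lies at chr13:34127008-34130354. Its single spot gave 0.59, 0.54, 0.42, 0.32, 0.35 and 0.41 on arrays 1 to 6. Every array was above 0, and arrays 1 and 2 were the highest, with means of 0.56 for arrays 1 and 2 and 0.37 for arrays 3 to 6. The mean was 0.44 ± 0.11 (SD, n = 6), or 1.35-fold, and 3.87% of tested spots had an SD as small. With 1 spot, no second measurement of Tubb2b was at hand on these arrays.

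Tubulins are close in sequence, and the other tubulin genes on the arrays give the setting for the pair. Of 24 spots of 12 other tubulin genes, 18 had a mean above 0, where 53.7% of all tested spots did. Tubb5, a beta-tubulin made in most dividing cells and abundant in embryos, had 9 spots, of which 8 had a mean above 0, with a median of 0.38. Of these, 3 passed the threshold: 0.38 ± 0.07 (limma, adjusted p = 0.0315), 0.38 ± 0.11 (adjusted p = 0.0362) and 0.39 ± 0.13 (adjusted p = 0.0385), each above 0 on 6 of 6 arrays. The ninth Tubb5 spot was under 0 on 6 of 6 arrays, at -0.26 ± 0.16 (SD, n = 6; adjusted p = 0.103). Tubb4b, a widely made isotype, stayed near 0, with spot means of 0.01, -0.03 and -0.17. Tubb6 had means of 0.02 and 0.11. Tuba8, an alpha-tubulin, had means of -0.42 and -0.30. The other tubulins had a single spot each. Tubb4a was highest, at 1.235 ± 1.429 (SD, n = 4), above 0 on every array with a value, and Tubb1 was at 0.50 ± 0.95 (SD, n = 4). Tubd1, Tuba1c and Tubg1 were at 0.35, 0.34 and 0.23, each above 0 on 6 of 6 arrays. Tuba1b was at 0.13, Tuba4a at 0.125 and Tube1 at -0.175. Thus the ratios of the Tubb2b spot and of the tighter Tubb3 spot lay beside those of most Tubb5 spots, and cross-hybridisation among tubulin transcripts was not tested.

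**Figure D2:**
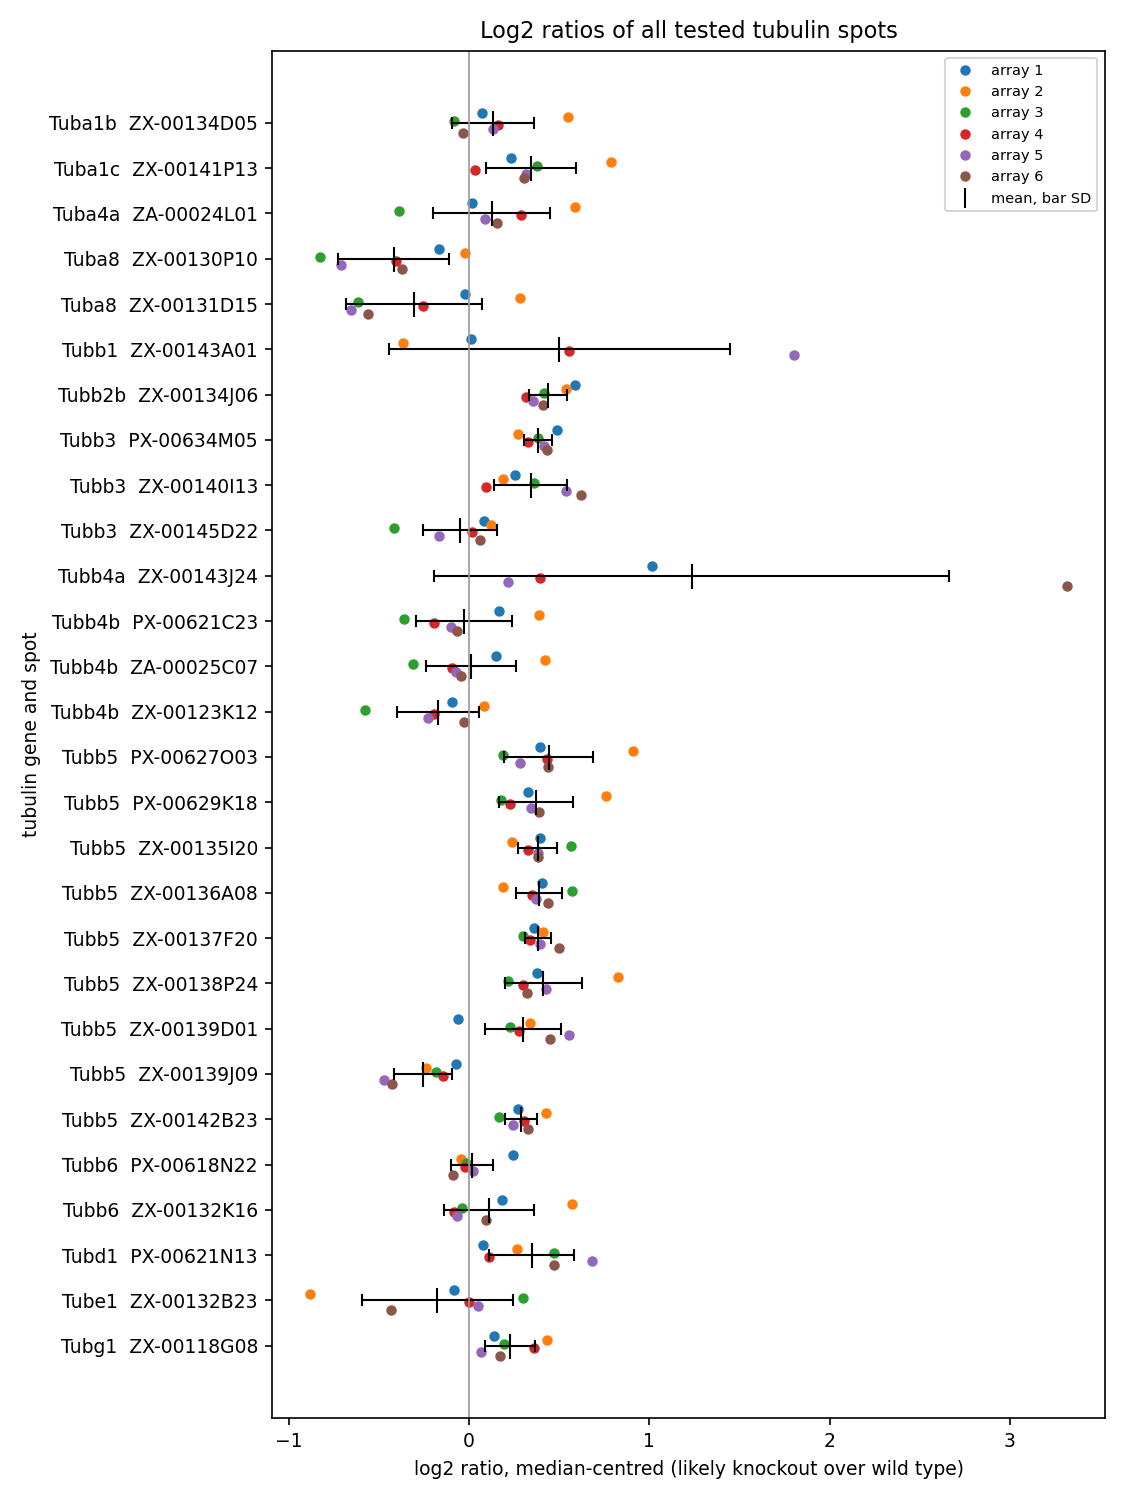
Median-centred log2 ratios (horizontal axis) of every tested tubulin spot (vertical axis), 1 coloured point per array, with the mean and SD as black lines. Most Tubb5 spots lie at about the same ratio as Tubb2b and the tighter Tubb3 spot, while Tubb4b and Tubb6 lie near 0 and Tuba8 under it.

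Elavl4 encodes HuD, which binds AU-rich elements of neuronal messages and stabilises them. Its gene lies at chr4:110203737-110351939. It had 4 spots, and they disagreed. Spot PX-00631C18 had values on 4 arrays, 0.79 on array 1, 0.80 on array 2, 1.35 on array 4 and 0.68 on array 5, with arrays 3 and 6 missing. All 4 lay above 0, and the mean was 0.90 ± 0.30 (SD, n = 4), or 1.87-fold.

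Spot ZX-00145C15 gave 1.46, 1.03, 0.20, 1.21, -1.06 and 1.06, with a mean of 0.65 ± 0.94 (SD, n = 6). Array 5 alone was under 0 here. Spot ZX-00145A12 gave 0.95, 1.83, 0.51, 0.26, -0.10 and -0.35, with a mean of 0.52 ± 0.79 (SD, n = 6). Its mean was 1.39 on arrays 1 and 2 and 0.08 on arrays 3 to 6. Spot ZX-00143O12 gave 0.30, 0.03, -0.20, -0.11, -0.25 and 0.13, with a mean of -0.02 ± 0.21 (SD, n = 6), and its values fell on both sides of 0. Averaged over its spots, Elavl4 was 0.46 ± 0.44 (SD, n = 6), from -0.18 on array 5 to 0.92 on array 2. The 3 spots with means above 0 were the ones with wide or incomplete values, and the 1 spot with values on 6 arrays and a small SD lay at 0.

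Ncam1 encodes a cell surface glycoprotein of the immunoglobulin superfamily through which neurons, muscle and endocrine cells adhere, and its gene lies at chr9:49502129-49799393. It was the only one of the 5 genes with all of its spots under 0. Spot ZX-00137N08 gave -0.25, -0.73, -0.16, -0.41, -0.58 and -0.52, with a mean of -0.44 ± 0.21 (SD, n = 6), or 1.36-fold lower. Spot ZX-00138O03 gave -0.51, -0.18, -0.34, -0.50, -0.45 and -0.30, with a mean of -0.38 ± 0.13 (SD, n = 6), or 1.30-fold lower. Both spots were under 0 on 6 of 6 arrays, and their means differed by 0.06, less than the SD of either. They did not follow each other from array to array: array 2 was the lowest on the first spot and the highest on the other.

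Calb1 encodes calbindin, which buffers calcium in neurons, in kidney tubules and in other epithelia, and its gene lies at chr4:15881264-15906709. It had the largest ratio of the 5 genes and also the widest disagreement, with 5 spot means spanning 2.17. Spot PX-00626D17 gave 1.81, 3.83, 0.32, 2.74, 3.39 and 1.05. All 6 values were above 0, but they ranged from near 0 on array 3 to the highest on array 2, and the mean was 2.19 ± 1.37 (SD, n = 6), or 4.56-fold. Spot ZX-00118N16 gave 4.40, 0.49, 1.18, -1.26 and -0.01 on arrays 1 to 5, with a mean of 0.96 ± 2.12 (SD, n = 5). Without 1 array its mean lay between 0.10 and 1.52, the lowest without array 1.

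The other 3 Calb1 spots were calmer. Spot ZX-00118A05 was above 0 on 6 of 6 arrays, from 0.20 to 0.96 with a median of 0.35, and had a mean of 0.45 ± 0.27 (SD, n = 6). Spot ZX-00118D17 ranged from -0.28 to 1.21 with a median of 0.43 and a mean of 0.50 ± 0.50 (SD, n = 6). Spot ZA-00025E18 ranged from -0.31 to 0.38 with a median of 0.01 and a mean of 0.02 ± 0.22 (SD, n = 6). Thus 1 of the 5 spots was at 0, 3 were between 0.4 and 1 with errors of very different size, and 1 was above 2.

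The spread of a spot went with the form of its deposited ratios. Many ratios in the table were quotients of whole numbers up to 20, within 0.0006 on the log2 scale: 22.6% of all values, against 11.2% after every value was shifted by 0.037. On the Calb1 spot PX-00626D17, all 6 deposited ratios were such quotients, among them 15 to 1 on array 2, 12 to 1 on array 5, 7 to 1 on array 4 and 7 to 2 on array 1. On the Elavl4 spot with 4 values, 2 were, 8 to 3 on array 4 and 11 to 6 on array 5. Over all spots, the median SD was 0.75 where 50% or more of the values were quotients and 0.22 where none were. Of the 15 spots, 6 had 50% or more, 3 of Elavl4 and 3 of Calb1, against 18.6% of all tested spots. The Tubb2b spot and 1 spot each of Tubb3, Elavl4 and Ncam1 had none. Spot intensities were not used here, so the part of dim signal in these ratios was not tested.

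**Figure D3:**
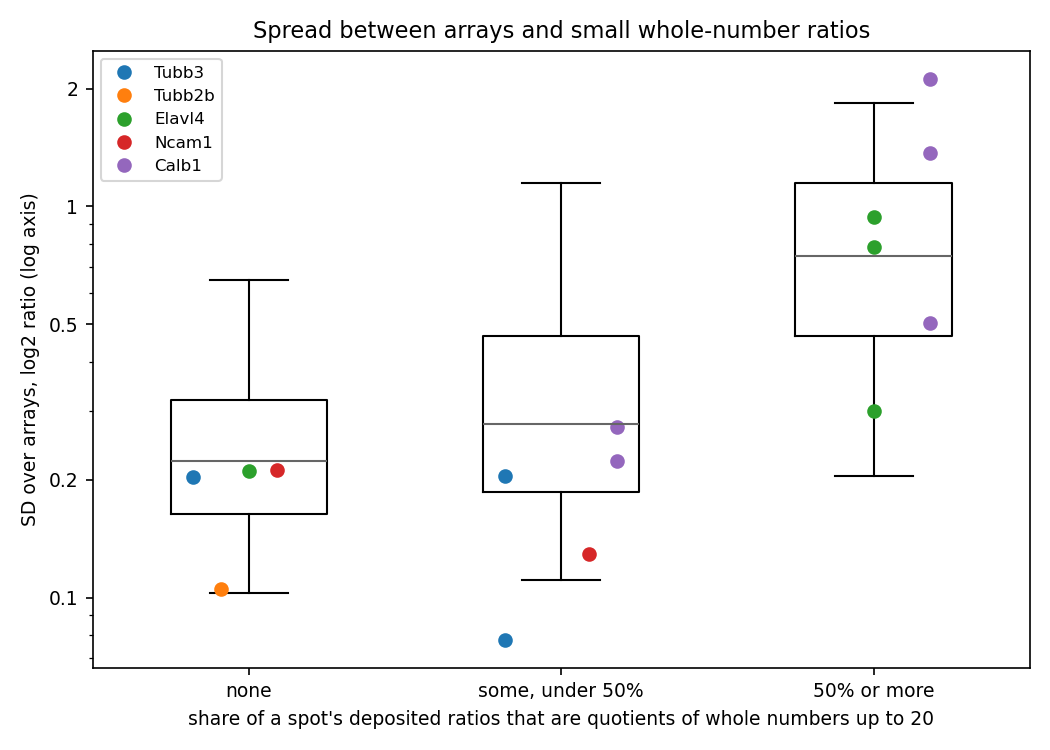
SD over arrays of the log2 ratio (vertical log axis) for all tested spots, grouped by the share of their deposited ratios that are quotients of whole numbers up to 20. Boxes show quartiles and median, whiskers the 5th and 95th percentiles, and coloured points the 15 spots of the 5 genes; the widest Elavl4 and Calb1 spots stand in the group with 50% or more, where the median SD over all spots is 0.75.

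The ratios of the 15 spots came from 11 source plates, taking the spot name without its well as the plate. The median ratio of a plate lay between -0.06 and 0.16, and the highest belonged to the plate of the tight Tubb3 spot, whose mean exceeded its plate's median by 0.22. The Tubb2b mean exceeded its plate's median by 0.48, and the Ncam1 means were 0.40 under theirs on both plates. When ratios were not centred, which raised spot means by 0.10 on average, both Ncam1 spots stayed under 0 but no longer passed the threshold, at -0.34 and -0.27. The Tubb3 spot ZX-00145D22 and the Elavl4 spot ZX-00143O12 moved to just above 0, at 0.05 and 0.09, and the Calb1 spot ZX-00118A05 passed. Over all spots that choice turned the calls from 416 above and 750 under to 849 above and 409 under.

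The spots of other genes whose values were most like those of each gene's reference spot, by root mean square difference over 6 arrays and among 15551 to 15554 candidates, were as follows. For the tight Tubb3 spot they were Fam32a (0.073), Nde1 (0.074) and Kat8 (0.075). For Tubb2b they were Oxct1 (0.08), Ralgps2 (0.091) and Nupr1l (0.107), and the Oxct1 spot stood on the same source plate as Tubb2b. For the Ncam1 spot ZX-00138O03 they were Nrg3 (0.072), Rabggtb (0.083) and Chmp4c (0.097). For the Elavl4 spot ZX-00145C15 the nearest, Polr3e, differed by 0.322, and for the Calb1 spot PX-00626D17 the nearest, Fam220a, differed by 0.64. The difference was not scaled by a spot's spread, so wide spots can be expected to have more distant neighbours than narrow ones. The wide Elavl4 and Calb1 spots had none as close as those of the narrow Tubb3, Tubb2b and Ncam1 spots. Nothing about the genes is read from that contrast.

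Other genes, collected in 9 lists by role and called neuronal here, were read beside the 5. The lists are not of neurons alone: Tubb5 is made in most dividing cells and Elavl1 is ubiquitous. Of 117 genes listed, 52 had a tested spot. A gene counted as called when at least 1 of its spots passed the threshold: 5 of the 52 were called above 0, which is 9.62% against 3.25% of all genes, and 2 under 0, which is 3.85% against 5.0% of all genes. The mean over a gene's spots was above 0 for 41 of the 52, against 57.1% of all genes, and the median was 0.17, against 0.04. On each array the median of the 52 was above 0, from 0.05 on array 3 to 0.18 on array 2. The lists, like the 5 genes, were chosen with earlier results of these data known. Nothing is therefore read from the shares of listed genes, here or below.

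**Figure D4:**
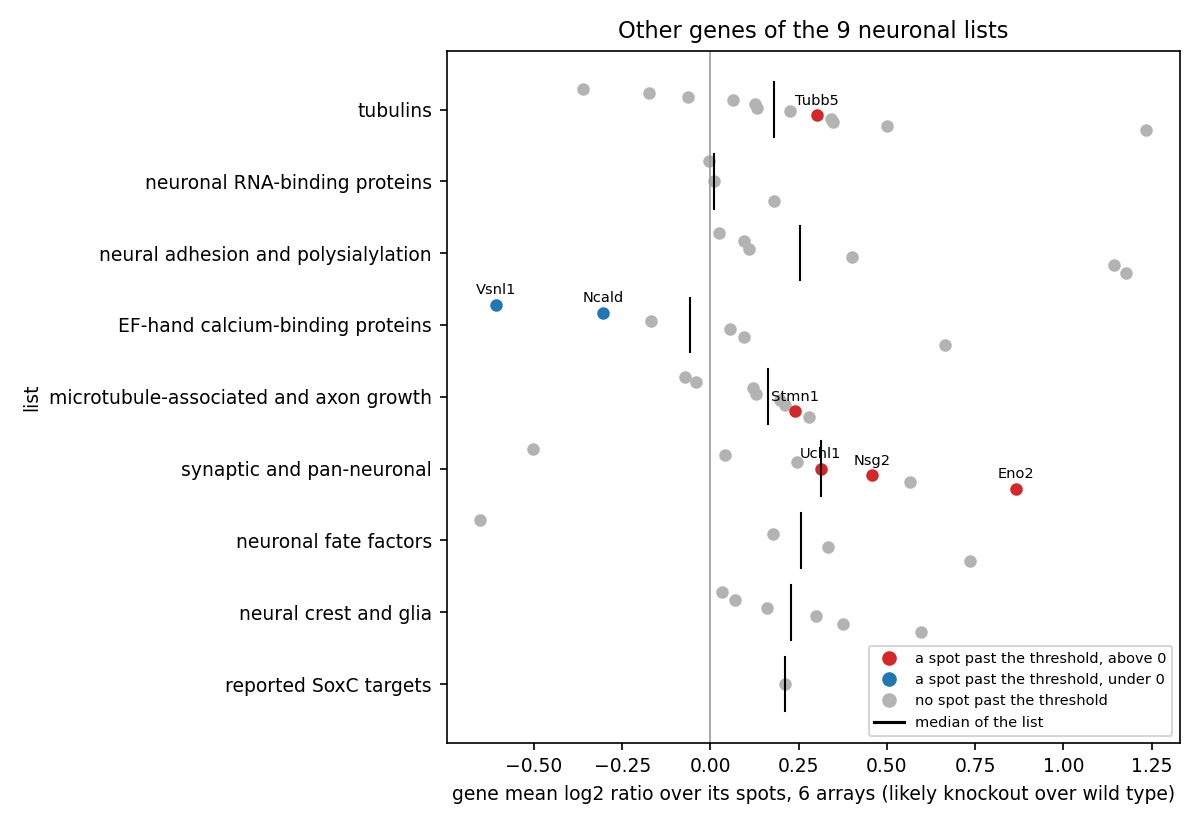
Mean log2 ratio over spots and arrays (horizontal axis) for each of the 52 other genes in 9 neuronal lists (vertical axis), with the list median as a black line. Red and blue points mark genes with a spot past the threshold above and under 0; the 5 red points are Tubb5, Stmn1, Uchl1, Nsg2 and Eno2, and the 2 blue points, Vsnl1 and Ncald, are both EF-hand proteins.

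Among genes with functions near those of Tubb3 and Tubb2b, the tubulins had 1 of 12 called above 0, Tubb5, and none under it. Of all genes, 3.25% were called above 0 and 5.0% under it. At an unadjusted p under 0.05, the tubulins had 4 genes above 0 and 2 under it. That cut was passed by 2169 of all 10818 genes above 0 and 2021 (18.7%) under it. The list of microtubule-associated and axon growth genes had 1 of 8 called, Stmn1, which encodes the microtubule-destabilising protein stathmin: 0.38 ± 0.15 (limma, adjusted p = 0.0448), above 0 on 6 of 6 arrays, with other spots at 0.46, 0.23 and -0.11. Among synaptic and pan-neuronal genes, 3 of 7 were called above 0, against 3.25% of all genes. Nsg2, a neuronal vesicle protein, was at 0.64 ± 0.29 (adjusted p = 0.0364), Uchl1, a ubiquitin hydrolase of neurons and endocrine cells, at 0.44 ± 0.20 (adjusted p = 0.046), and Eno2, the neuronal enolase, at 0.87 ± 0.52 (adjusted p = 0.0497), each above 0 on 6 of 6 arrays. A second spot of Nsg2 was at 0.28 and a second spot of Uchl1 at 0.19, neither past the threshold. At an unadjusted p under 0.05, this list had 3 genes above 0 and 1 under it. The latter was Gng3, whose single spot was at -0.50 (limma, unadjusted p = 0.00415).

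Beside Calb1, the EF-hand list had 2 of 6 genes called under 0 and none above, against 5.0% and 3.25% of all genes. At an unadjusted p under 0.05, the list had 3 genes under 0 and none above, where 2021 and 2169 of all 10818 genes were. Vsnl1, which encodes the calcium sensor visinin-like 1, fell on both of its spots, at -0.64 ± 0.18 (limma, adjusted p = 0.0248) and -0.58 ± 0.25 (adjusted p = 0.0362), under 0 on 6 of 6 arrays. Ncald, which encodes neurocalcin delta, was at -0.31 ± 0.09 (adjusted p = 0.0472), under 0 on 6 of 6 arrays. Beside Elavl4, none of 3 RNA-binding genes was called, nor did any pass an unadjusted p of 0.05; Elavl1, the ubiquitous relative of Elavl4, had spot means of 0.62 ± 1.14, -0.05 and -0.04. Beside Ncam1, none of 6 adhesion genes was called by limma, with 3 above 0 at an unadjusted p under 0.05, where 2169 of all 10818 genes were. Cdh2, the neural cadherin, was at 0.24 ± 0.16 (adjusted p = 0.119) on 1 spot and at -0.02 ± 0.15 (adjusted p = 0.882) on the other.

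Of 3 other genes listed here as reported SoxC targets, Dcx alone had a tested spot. Dcx encodes the microtubule protein doublecortin. Its spots were at 0.41 ± 0.22 (limma, adjusted p = 0.0579), above 0 on 6 of 6 arrays, and at 0.02 ± 0.38 (adjusted p = 0.948). Neuronal fate factors (4 genes) and neural crest and glial genes (6 genes) had none called, with 1 above and 2 under, and 2 above and none under, at an unadjusted p under 0.05 (2169 of all 10818 genes above, 2021 under). Neurod4, a proneural factor, was at -0.37 ± 0.18 (adjusted p = 0.057) on 1 spot and at 0.49 and 0.41 on the others. Nes, which encodes nestin of progenitor cells, was at 0.35 ± 0.21 (adjusted p = 0.0745) on 1 spot and at 0.23 and -0.10 on the others. Without array 2, Tubb5 and Nsg2 passed above 0 and Vsnl1, Ncald and Neurod4 under it; without array 3 Neurog1 alone passed, under 0; and without array 1, 4, 5 or 6 none passed. The means of the called spots kept their sign without any 1 array, the Tubb5 spot ZX-00137F20 between 0.36 and 0.40, Stmn1 between 0.34 and 0.43, Eno2 between 0.73 and 1.02 and the lower Vsnl1 spot between -0.69 and -0.60. At an unadjusted p under 0.05, these 6 refits had 23.5% to 30.6% of the listed genes above 0, against 17.0% to 19.6% of all genes, and 11.8% to 16.7% under 0, against 15.0% to 20.7%.

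Markers of the other cell types that the tissue could hold were read on the same arrays. Of all genes, 3.25% were called above 0 and 5.0% under it. Of 10 endocrine genes, Ins2 was called above 0, at 0.54 ± 0.23 (limma, adjusted p = 0.0363), with other spots at 0.52 and 0.68. Neurog3, the endocrine progenitor factor, was called under 0 on 1 spot, at -0.73 ± 0.17 (limma, adjusted p = 0.0203). Its other spot was at -0.32 ± 0.33 (limma, adjusted p = 0.164) and above 0 on 1 array. The list's median was 0.23, with medians per array from -0.31 to 0.31. Of 6 epithelial genes, Cpa1 alone was called, under 0, at -0.50 ± 0.17 (adjusted p = 0.0315), and of 7 mesenchymal genes Sparc alone, under 0, at -0.31 ± 0.08 (adjusted p = 0.0453). Of 9 liver genes, 6 were called under 0: Apoc1, Vtn, Ambp, Fgb, Fgg and Afp. By limma, Ambp was at -0.77 ± 0.10 (adjusted p = 0.0126), Fgb at -1.12 ± 0.26 (adjusted p = 0.0127) and Fgg at -1.14 ± 0.31 (adjusted p = 0.0193). Vtn was called on 1 of its 2 spots, and the mean of the other was -0.06. Afp, the fetal serum protein, was at -2.06 ± 0.22 (adjusted p = 0.00141), with other spots at -2.05, -1.90 and 0.01, and the list's median lay between -0.81 and -0.49 on the 6 arrays. Blood and vessel lists had medians near 0, at 0.00 for 6 erythroid genes, -0.02 for 4 endothelial genes (none called; Sox7 at -0.32 ± 0.14, adjusted p = 0.059) and -0.11 for 5 leukocyte genes. Erythroid Hba-a1 was called above 0 on 1 of its 17 spots, at 0.40 ± 0.19 (limma, adjusted p = 0.049). Of the 17, 12 had means under 0 and 5 above it. Leukocyte Cd53 was called above 0, at 0.71 ± 0.12 (SD, n = 5; limma, adjusted p = 0.0251), and 80.0% of its deposited ratios were quotients. C1qa was called under 0, at -0.40 ± 0.18 (limma, adjusted p = 0.0464). The Afp spots at -2.06, -2.05 and -1.90 passed whichever array was left out. The other marker spots given here with an SD passed in at most 2 of the 6 refits without an array. The part of cell composition, liver tissue included, in the ratios of the 5 genes was not tested.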

How the data were processed

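RNA labelled Sox4 knockout and wild type was hybridised together on 6 arrays. The deposited series table holds log2 ratios, which by their values carry a ceiling; the scanner and normalization were not given in the sources used here. Ceiling values were set to missing, each array was centred on its median, and spots with values on at least 4 arrays were tested against 0 with limma 3.58.1 (R 4.3.3), with Benjamini-Hochberg adjustment over 21247 of 21888 spots and a threshold of 0.05. The fit was tested on simulated data with independent normal noise on each spot and array. That setting does not copy arrays that may share RNA pools, so it cannot speak for the calls given here. Gene names come from spots with 1 symbol in the platform table (18388 spots), and loci and promoters from RefSeq tables of GRCm38.p6, where all 5 genes matched the locus table and 2 the promoter table. Means and SDs are over arrays. Tables and plots were made with Python 3.11.15 and matplotlib 3.10.9. All spots of the 5 genes were described. From each other list, values were given for the genes past the threshold, at most 4, or for the gene with the smallest p where none passed. Some other genes of the lists were named beside them. The members and lists were chosen with earlier results of these data known. Results were recomputed uncentred, after scale and after quantile normalization, with stricter and looser filters, with the ceiling kept, with array weights, robust moderation, the array set as a term, each set of arrays alone, and each array left out. The number of arrays limits the precision.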

Additional observations from a re-analysis of the deposited data

Results flagged for a closer look

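In 12 of 87 spots checked, 1 array stood apart from the other 5 by Dixon's criterion, which chance meets in about 1 of 20 groups; none of the 15 spots of the 5 genes was among them. Array 2 was highest on 3 Tubb5 spots, at 0.824, 0.908 and 0.76, while the other arrays lay between 0.175 and 0.437, and on 2 Hba-a1 spots, at 0.496 and 0.458. It was also least negative on a Fgb spot, at -0.604. Array 3 was highest on a Uchl1 spot, at 0.444, and on a Neurog3 spot, at 0.32, and lowest on a Nes spot, at -0.06. Another Nes spot was highest on array 5, at 1.387. An Elavl1 spot was highest on array 6, at 2.764, where the other arrays reached 0.781. A Sparc spot was least negative on array 1, at -0.154.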

How the results depend on the processing

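Over all spots, 1166 passed the threshold. The count was 1786 with scale normalization, 2402 with array weights, 695 with the array set (arrays 1 and 2, arrays 3 to 6) as a term, 13 with arrays 3 to 6 alone and 0 with arrays 1 and 2 alone, where limma gave 2953 at an unadjusted p under 0.05; leaving out 1 array gave 10 to 1072. Of the neuronal list genes, 5 passed above 0. The count was 8 without centring, 3 with the set as a term, and 0 with arrays 3 to 6 or arrays 1 and 2 alone (30.6% and 21.6% of them at an unadjusted p under 0.05, against 21.1% and 12.9% of all genes); leaving out 1 array gave 0 to 2. Under 0, 2 passed. The count was 5 with scale normalization, quantile normalization, spots on all arrays or array weights, 1 without centring, with spots on at least 2 arrays or with the set as a term, and 0 with either set alone (14.3% and 5.88% at an unadjusted p under 0.05, against 20.8% and 7.26%); leaving out 1 array gave 0 to 3. Of the 6 called spots of the 5 genes, Tubb3 and Tubb2b alone passed with the set as a term. Calb1 PX-00626D17 no longer passed with spots on at least 2 arrays, the ceiling kept or robust moderation, Ncam1 ZX-00137N08 with spots on at least 2 arrays, and Elavl4 PX-00631C18 with scale normalization. Both Ncam1 spots no longer passed without centring, and none of the 6 passed in either set alone. The cause of these shifts was not tested. All arrays belong to 1 group. Each ratio compares the 2 RNAs on the same array, so the fit against 0 already pairs them by array. Spot intensities were not used here, so signal over background is unknown.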
